A study of Mus musculus with 8 samples.

Results

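D1 medium spiny neurons (MSNs) are the striatal projection neurons that carry the D1 dopamine receptor, and here they are the cells that the authors' deposited annotation of the striatum names D1. They number 3904 of 14690 annotated striatal cells (26.6%) and of 23687 annotated cells in both tissues of the study. The striatal data were 4 single-cell RNA sequencing libraries, 2 from WT and 2 from Setd1a+/- mice, and counts of unique molecular identifiers (UMIs, 1 per captured RNA molecule) were summed over the D1 cells of each library. D1 cells numbered 1026 and 1287 in WT replicates 1 and 2 and 583 and 1008 in Setd1a+/- replicates 1 and 2, with 3401734, 4832411, 2001678 and 2723909 UMIs in that order. All 4 libraries came from male C57BL/6N mice of 8-10 weeks according to the labels, whereas the methods give an older range. Setd1a+/- mice carry an 8-base frameshift deletion in exon 15 of Setd1a made by CRISPR-Cas9, and the WT mice were their littermates. Each library pooled the tissue of 2 mice, so the spread between libraries is a spread between pools. According to the methods the mutation was made in zygotes of a hybrid strain, and the line was backcrossed to C57BL/6N before use. The labels call the tissue NAc, and the methods describe dorsal and ventral striatum.

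MSNs release GABA and make up most neurons of the striatum. D1 MSNs form the direct pathway to the midbrain and the internal globus pallidus, make substance P (from Tac1) and dynorphin (from Pdyn), and answer dopamine through a receptor coupled to Golf and adenylyl cyclase that raises cAMP. D2 MSNs form the indirect pathway, make enkephalin (from Penk), and carry the D2 dopamine and A2a adenosine receptors, of which the former lowers cAMP. SETD1A is a histone methyltransferase that places the H3K4 trimethyl mark at promoters.

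The library of Setd1a+/- replicate 2 stood apart in its cell composition before any result of this report. It held 67 mature oligodendrocytes and 31 astrocytes, where the other 3 libraries held 514 to 947 and 214 to 354. Its D1 cells had the lowest median UMI count of the 4 libraries (2657 against 3225.5 to 3664) and the highest median share of mitochondrial UMIs (4.70% against 3.63 to 3.93%). Any 2 libraries shared 10 to 24 cell barcodes over all types and at most 2 among D1 cells. Values without it are given beside several results that it moved, and others stand with the limits.

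Most cells labelled D1 held transcripts of the markers of the type. The study named its clusters from marker expression in these same cells, so the shares below describe the label and cannot check it. At least 1 UMI of Drd1, Tac1 or Pdyn was found in 3576 of the 3904 cells (91.6%, 95% Wilson interval 90.7 to 92.4, which covers counting error only), all 3 in 778 cells, and none in 328. A Drd1 UMI was found in 36.2% of D1 cells, in 1.63% of D2 cells and in 1.32% of mature oligodendrocytes, which should lack the receptor. The median UMI count was 3167 in D1 cells, 3422 in D2 cells and 2076 in oligodendrocytes, and after every cell was thinned to 1000 UMIs the shares were 14.04, 0.612 and 0.512%. The D1 share was above both others at either depth, and above that of interneurons (11.8%, and 2.44% after thinning). Tac1 UMIs were found in 86.9% of D1 cells, 25.5% of D2 cells and 13.7% of oligodendrocytes, and Pdyn UMIs in 50.7, 3.67 and 1.28%. Penk UMIs were found in 40.0% of D1 cells, 96.8% of D2 cells and 16.5% of oligodendrocytes, and 31 D1 cells (0.794%) held UMIs of both Drd1 and Drd2. Chrm4, the M4 muscarinic receptor gene used as a D1 marker, was near 0 in every type and could not serve (5 UMIs over all D1 cells).

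Levels are given as CPM, the UMIs of a gene divided by all UMIs of the same cells and scaled to the standard fixed total. Drd1 was at 139.6 and 147 CPM in the WT libraries, at 164 and 158 CPM in the Setd1a+/- libraries, and at 3.12 to 6.68 CPM in D2 cells. Tac1 was at 4045 and 3741 CPM in the WT libraries and 3867 and 3307 CPM in the Setd1a+/- libraries, against 352 to 590 CPM in D2 cells. Pdyn was at 487 and 376 CPM in the WT libraries and 349 and 307 CPM in the Setd1a+/- libraries, against 6.25 to 18.8 CPM in D2 cells. For all 3 genes every library of D1 cells lay above every library of every other type. The type ranked next was microglia for the mean of each gene, at 39.5 CPM for Drd1, 726 CPM for Tac1 and 60.4 CPM for Pdyn, a cell type not known to make these peptides. The source of these UMIs was not tested.

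**Figure D1:**
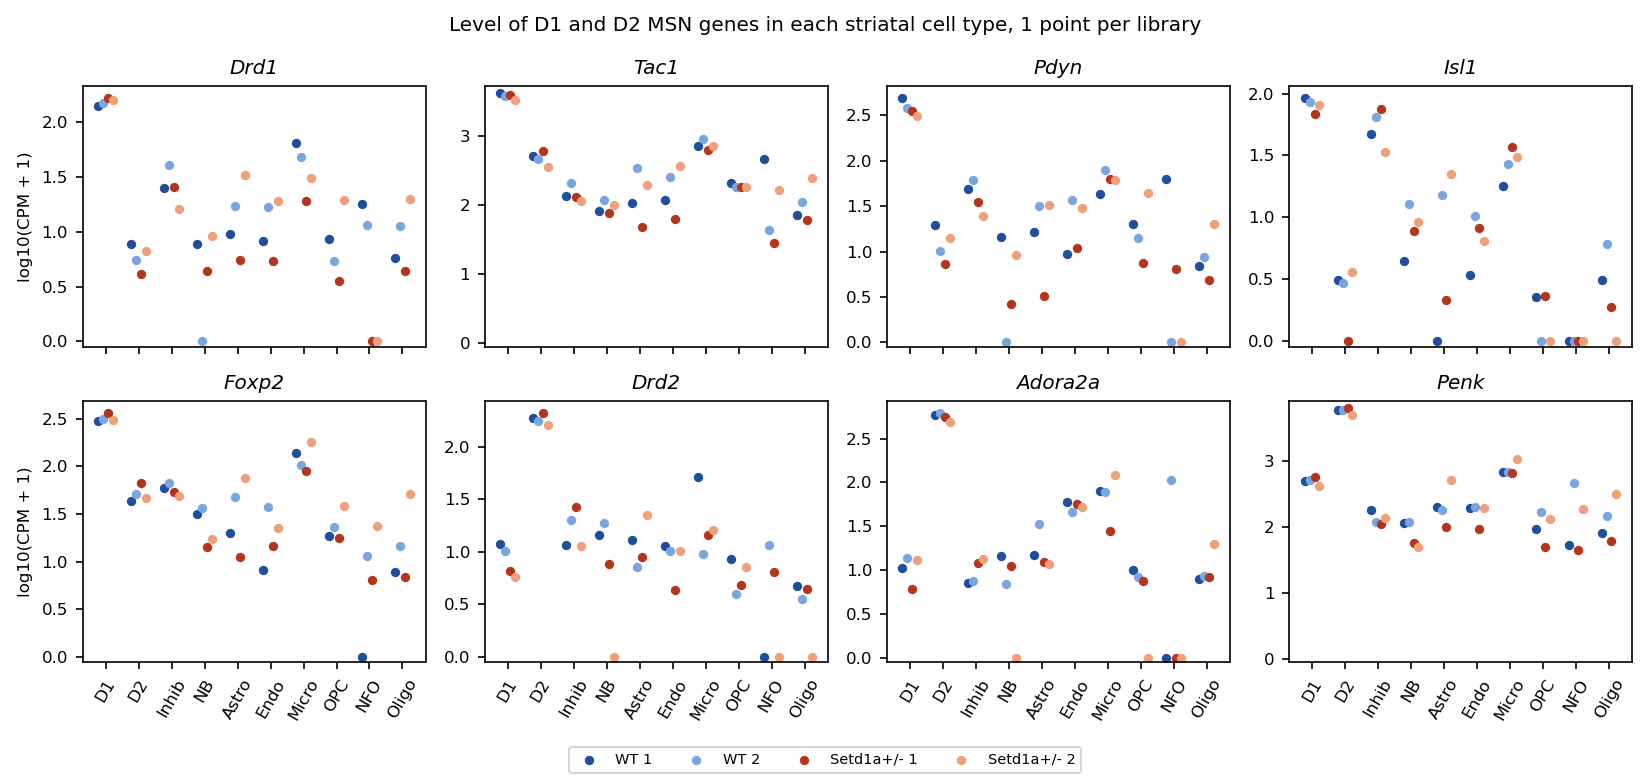
Level of 8 genes in the 10 annotated striatal cell types, as log10(CPM + 1) with 1 point per library (blue WT, red Setd1a+/-). Inhib, interneurons; NB, neural stem cells and neuroblasts; Astro, astrocytes; Endo, endothelial cells; Micro, microglia; OPC, oligodendrocyte progenitors; NFO, newly formed oligodendrocytes; Oligo, mature oligodendrocytes. Drd1, Tac1, Pdyn and Foxp2 were highest in D1 cells in all 4 libraries, Drd2, Adora2a and Penk were highest in D2 cells, and Isl1 was highest in D1 cells in 3 of 4 libraries and in interneurons in the other.

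The 3 marker genes that name the type are shown with the 250 bases before the transcription start that RefSeq gives, since their products are the receptor and the peptides by which direct-pathway cells are told from indirect-pathway cells. The sequences are from RefSeq (GRCm38.p6), written 5′ to 3′ on the strand of the gene: Drd1 at chr13:54055659-54055908 (minus strand), Tac1 at chr6:7554811-7555060 (plus strand) and Pdyn at chr2:129699939-129700188 (minus strand). Capitals mark matches of the core of the cAMP response element, TGACG or its reverse complement CGTCA, searched on both strands.
Drd1: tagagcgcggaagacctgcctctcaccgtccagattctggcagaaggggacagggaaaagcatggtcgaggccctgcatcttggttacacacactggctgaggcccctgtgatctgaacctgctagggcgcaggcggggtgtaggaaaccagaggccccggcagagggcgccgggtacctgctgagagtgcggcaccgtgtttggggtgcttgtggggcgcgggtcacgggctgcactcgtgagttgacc
Tac1: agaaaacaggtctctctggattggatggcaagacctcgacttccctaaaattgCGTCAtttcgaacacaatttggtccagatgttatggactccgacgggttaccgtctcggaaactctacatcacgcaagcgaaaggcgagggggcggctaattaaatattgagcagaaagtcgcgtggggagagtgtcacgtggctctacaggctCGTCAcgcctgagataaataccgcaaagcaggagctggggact
Pdyn: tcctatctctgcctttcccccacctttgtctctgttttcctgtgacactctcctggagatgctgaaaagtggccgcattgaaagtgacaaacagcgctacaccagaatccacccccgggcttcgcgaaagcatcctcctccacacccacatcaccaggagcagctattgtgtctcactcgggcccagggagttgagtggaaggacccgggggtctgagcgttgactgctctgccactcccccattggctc
The core was found 2 times before Tac1 and not in these windows of Drd1 and Pdyn, and 5836 of 32851 RefSeq promoters of the same length (17.8%) held it at least once. The GENCODE annotation used for gene positions starts Tac1 at 7554879 and Drd1 at 54055705, inside these windows, so by that annotation the second match of Tac1 lies within the gene. A match of letters does not show that a factor binds.

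D1 cells were set against the other 9 types as a description with no test, because the annotation grouped the cells on the same genes. Of 5560 genes at 20 CPM or more in D1 cells of every library, 92 (1.65%) were higher in D1 than in any other type in all 4 libraries. The margin over the next type was at least 1.5-fold in every library for 11 genes (0.198%) and at least 2-fold for 4 (0.0719%). The 4 were Pdyn (4.87- to 7.80-fold over the libraries), Tac1 (4.21- to 6.28-fold), Slc35d3, a transporter-like protein known for a role in D1 receptor trafficking (3.77- to 5.07-fold), and Drd1 (2.22- to 6.65-fold). Dlk1, a Notch family ligand, followed at 1.97- to 3.53-fold, and Foxp2, a forkhead transcription factor of striatal and cortical projection neurons, at 1.72- to 4.02-fold. Cpne6, Spink8, Lypd1, Wfs1 and Pcp4 made up the rest of the 11, with lowest ratios between 1.501 and 1.69. After thinning, 47 of 5334 genes were highest in D1 in every library, 6 had a 1.5-fold margin and 5 had 2-fold, Foxp2 being the one added at 2-fold with a lowest ratio of 2.57.

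D2 MSNs were the nearest type, and few genes parted it from D1 cells. Of 5713 genes at 20 CPM or more in every library of D1 or of D2 cells, 69 (1.21%) were at least 1.5-fold higher in D1 in every library and 28 (0.49%) at least 1.5-fold higher in D2. At 2-fold these were 30 (0.525%) and 14 (0.245%). The median log2 ratio over the 5713 genes was 0.05, on the log2(CPM + 1) scale of means over 4 libraries. All D1 against D2 log2 ratios here use that scale, while folds and fold limits are CPM ratios within each library.

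Tac2, the neurokinin B precursor, had the highest ratio to D2 by its lowest library. Its UMIs were 210, 509, 201 and 92 in D1 cells of WT replicates 1 and 2 and Setd1a+/- replicates 1 and 2, and 0, 6, 0 and 0 in D2 cells. No library of D2 cells came near a library of D1 cells. Isl1, a LIM homeodomain factor needed for direct-pathway fate, was at 66.9 to 91.1 CPM in D1 and at most 2.60 CPM in D2 cells. Ebf1, another factor of direct-pathway development, was at 26.1 to 36.5 CPM in D1 against 1.29 to 3.76 CPM in D2 cells. Adarb2, an RNA-binding relative of the editing enzymes, was at 29.0 to 65.4 CPM in D1 and at most 1.56 CPM in D2 cells. The other genes with the highest ratios were Pdyn, Drd1, Slc35d3, Tac1, Foxp2 and Lingo2. Of 10 genes of the D1 identity list, 7 reached 20 CPM in D1 or D2 cells, and all 7 were at least 1.5-fold higher in D1. The list is made of known D1 markers, which can pass that filter through D1 cells alone, so this count cannot check the label.

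In the other direction, Adora2a, the A2a adenosine receptor, was at 5.00 to 12.6 CPM in D1 against 486 to 613 CPM in D2 cells, 40.1- to 111.5-fold lower over the libraries. Upb1, a pyrimidine breakdown enzyme, was at 0.621 to 3.23 CPM in D1 against 37.5 to 81.8 CPM in D2 cells. Drd2 was at 4.77 to 10.9 CPM in D1 against 159 to 207 CPM in D2 cells, and the orphan receptor gene Gpr6 at 7.35 to 14.7 against 118 to 142 CPM. Penk was at 405 to 563 CPM in D1 cells, 11.1- to 12.2-fold below D2 cells. P2ry1, Grik3, Adk, Fig4 and Gucy1a1, of which Gucy1a1 encodes a subunit of the nitric oxide receptor, completed the 10 lowest.

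**Figure D2:**
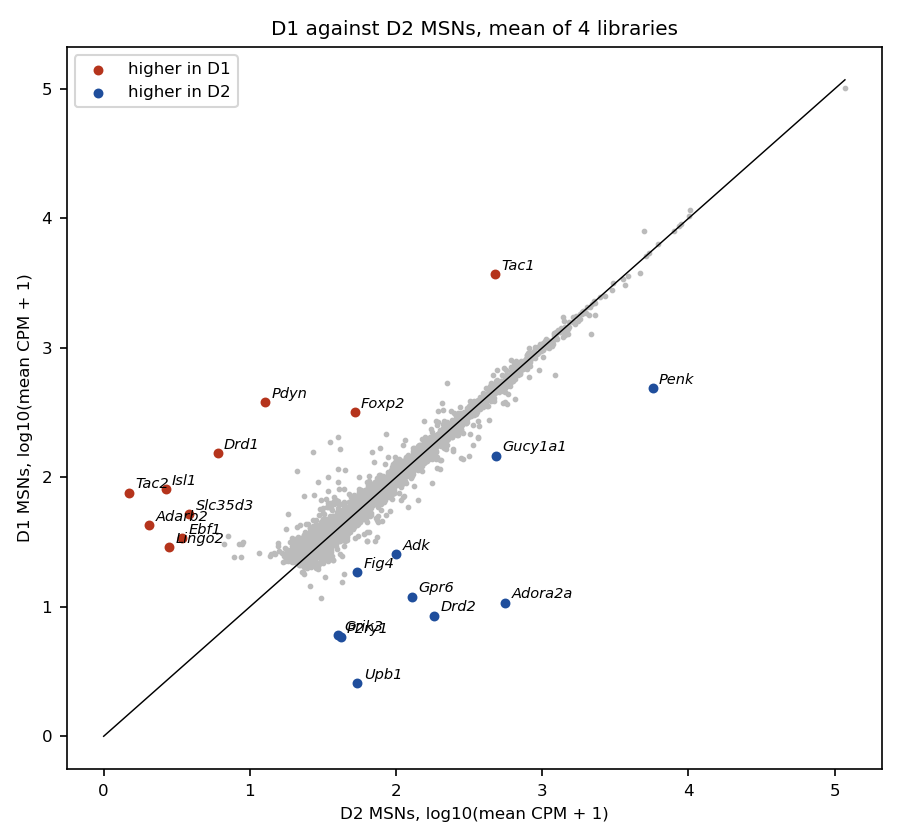
Mean level over 4 libraries in D1 cells (y axis) against D2 cells (x axis), log10(CPM + 1), for 5713 genes, with the line of equal level. The 10 genes of highest ratio to D2 are red, the 10 of lowest ratio blue. Most genes lie on the line, and Tac1, Pdyn, Drd1, Foxp2 and Tac2 stand above it while Penk, Adora2a and Drd2 stand below.

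Below the receptor, few listed dopamine signaling genes passed a 1.5-fold margin between D1 and D2 cells in every library. Of 23 genes of the D1 receptor and cAMP pathway at 20 CPM, Drd1 alone was at least 1.5-fold higher in D1 in every library, and Arpp19, a regulator of protein phosphatase 2A, alone was so in D2 (1114 to 1501 CPM in D1, 1931 to 2368 CPM in D2). The median log2 ratio was -0.04. Gnas, which the list leaves out, had a mean of 144 CPM in D1 and 314 CPM in D2 cells. Pde1a, also left out, was at 131 and 70.1 CPM. Adcy5, the main striatal adenylyl cyclase, was at 318 to 359 CPM in D1 and 329 to 366 CPM in D2 cells, and Gnal, the Golf alpha subunit, at 369 to 441 and 353 to 459 CPM. Both ranges overlapped. Ppp1r1b, which encodes DARPP-32, was at 1087 to 1597 CPM in D1 and was lower than in D2 in 4 of 4 libraries, with a log2 ratio of -0.19.

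Of 22 genes shared by both MSN classes, Foxp2 alone was at least 1.5-fold higher in D1, and 3 were so in D2, beside 1.21 and 0.49% of all 5713 genes. Among the 3 were Arpp19 (log2 ratio -0.75) and the forkhead factor gene Foxp1 (-0.68). Rasd2, a striatal small G protein, had a mean log2 ratio of -0.79 but missed the rule in at least 1 library. Foxp1 and Foxp2 thus had opposite orders between the classes. Among 13 neuromodulator receptor genes at 20 CPM, Drd1 was higher in D1 by this rule and 4 were higher in D2, beside the same shares of all genes. The 4 include Drd2 and Adora2a, known markers of D2 cells, so the count partly restates the label. Oprk1, the kappa opioid receptor to which dynorphin binds, was at 52.9 to 72.4 CPM in D1 and 31.7 to 43.9 CPM in D2 cells, without overlap. Htr2c was at 57.0 to 78.6 CPM in D1 and 89.1 to 138 CPM in D2 cells. Of 25 excitability channel genes none passed the rule in either direction, and of 25 vesicle release genes only Rab3b did, at 77.8 to 128 CPM in D1 and 16.1 to 50.8 CPM in D2 cells. Oxidative phosphorylation and ribosomal protein genes had median log2 ratios of -0.05 and 0.06, with 0 of 81 genes past 1.5-fold in each list. All 12 H3K4 methylation genes at 20 CPM lay within a log2 ratio of 0.01 and 0.29.

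Immediate early genes are transcripts that neurons switch on within minutes of activity or stress. Of the 11 that reached 20 CPM, Arc alone (1) was at least 1.5-fold higher in D2 than in D1 cells in every library, beside 0.49% of 5713 genes. By any margin 8 were lower in D1 in all 4 libraries, an order whose share over all genes was not counted. The log2 ratios ran from -1.09 to -0.04 with a median of -0.85. Junb was at 182 and 240.5 CPM in D1 cells of the WT libraries and 163 and 222 CPM in those of the Setd1a+/- libraries, against 288, 339, 402 and 428 CPM in D2 cells of the same libraries. Btg2, Fos, Arc, Nr4a1 and Dusp6 had log2 ratios between -1.09 and -0.96, each with D1 below D2 in all 4 libraries. Dissociation with papain is part of the protocol, and how much of these levels arose there was not tested.

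D1 cells were not uniform. Leiden clustering, with genes scaled within each library, gave 8 clusters, of which 4 had at least 30 cells in every library and held 3712 cells. The clusters are a description, since the clustering used the expression of the same cells, and they are called by number. Their medians were 2575 to 3563 UMIs per cell in clusters 1 to 4.

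Cluster 1 (1454 cells, 37.2%) was led by Reln, which encodes the matrix protein reelin, Coch, Calb1, Nexn and Ido1. Calb1, the calcium buffer calbindin used as a marker of the matrix compartment, was at 304 to 402 CPM over the libraries, against 91.8 to 134 CPM in the other D1 cells. Of 7 matrix markers, 3 were at least 2-fold above the other D1 cells in cluster 1, and 2 of the 7 are among its 10 leading genes. The share of all genes at 2-fold was not counted. Cluster 3 (819 cells, 21.0%) was led by Ramp3, a partner of peptide receptors, Gabrg1, Prok2 and Arhgap36. Cartpt, the precursor of CART peptides, was at 1585 to 2230 CPM in cluster 3 and 505 to 1011 CPM in cluster 1, and Pcp4, a calmodulin regulator, was at 2420 CPM in cluster 3 and 9848 CPM in cluster 1 with libraries pooled. Wfs1 and Crym were at 457 and 597 CPM in cluster 3 and at 262 and 400 CPM in cluster 1. Cluster 4 (375 cells, 9.61%) was led by the circadian repressor gene Bhlhe41, Spry2, Rbm15, Slc39a1 and Sfxn5 and was close to cluster 1 in Drd1, Tac1 and Calb1.

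Cluster 2 (1064 cells, 27.3%) stood apart from the other large clusters in several genes that define MSN classes. Tac1 was at 2993 to 3792 CPM and Drd1 at 98.6 to 134 CPM over its libraries, overlapping the ranges of cluster 3. Pdyn was at 46.0 to 188 CPM against 298 to 591 CPM in clusters 1, 3 and 4. Isl1 was at 1.89 to 11.5 CPM against 72.0 to 162 CPM, so the receptor and Tac1 were kept where the homeodomain factor was nearly absent. Foxp2 was at 671 to 767 CPM in cluster 2 and 166 to 264 CPM in clusters 1, 3 and 4, while Foxp1 was at 73.9 to 133 against 339 to 688 CPM. Penk was at 970 to 1538 CPM against 142 to 302 CPM, and Calb1 at 3.79 to 26.3 CPM against 89.2 to 402 CPM. In Pdyn, Isl1, Foxp2, Foxp1, Penk and Calb1 the libraries of cluster 2 lay wholly outside those of the other large clusters. Its leading genes were Mdfic, Edn1, Casz1, Ptprm and Sphkap. Of 7 markers listed for MSNs that carry both receptors, 6 were at least 2-fold above the other D1 cells, as were 3 of 8 patch markers. Of those 7, 2 are among the 10 leading genes of the cluster, and the share of all genes at 2-fold was not counted. Drd2 was at 4.93 to 9.47 CPM over the libraries of cluster 2, within the 0.00 to 10.2 CPM of clusters 1, 3 and 4, and the cluster was left unnamed. Tac2 came from clusters 2 and 3, at 128 to 253 and 27.1 to 200.4 CPM, and was at most 7.90 CPM in any library of clusters 1 and 4.

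The 4 small clusters held 192 cells, and in some of them the data went against the label. Cluster 5 (67 cells) had no Drd1 UMI, Tac1 at 343 CPM and Scgn at 249 CPM, with Vip, Calb2 and Sp8 among its leading genes, which interneurons and their precursors express. Summed neuroblast markers were at 1159 CPM in cluster 5 and interneuron markers at 463 CPM, against 141 and 88.5 CPM in the other D1 cells. Cluster 8 (30 cells) had Drd2 at 226 CPM and Adora2a at 103 CPM and the highest median mitochondrial share, 7.66%. Its cells had a median of 1344.5 UMIs, so these levels rest on few UMIs. Summed interneuron markers were at 412 CPM in cluster 8, against 90.6 CPM in the other D1 cells. Cluster 7 (37 cells) had the oligodendrocyte gene Mog at 580 CPM beside Drd1 at 79.6 CPM and Tac1 at 3274 CPM, and cluster 6 (58 cells) had the progenitor gene Pdgfra at 128 CPM beside Drd1 at 135 CPM. Median UMI counts in clusters 6 and 7 were 4636.5 and 4541, the highest of the 8. Whether these cells are doublets was not tested.

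**Figure D3:**
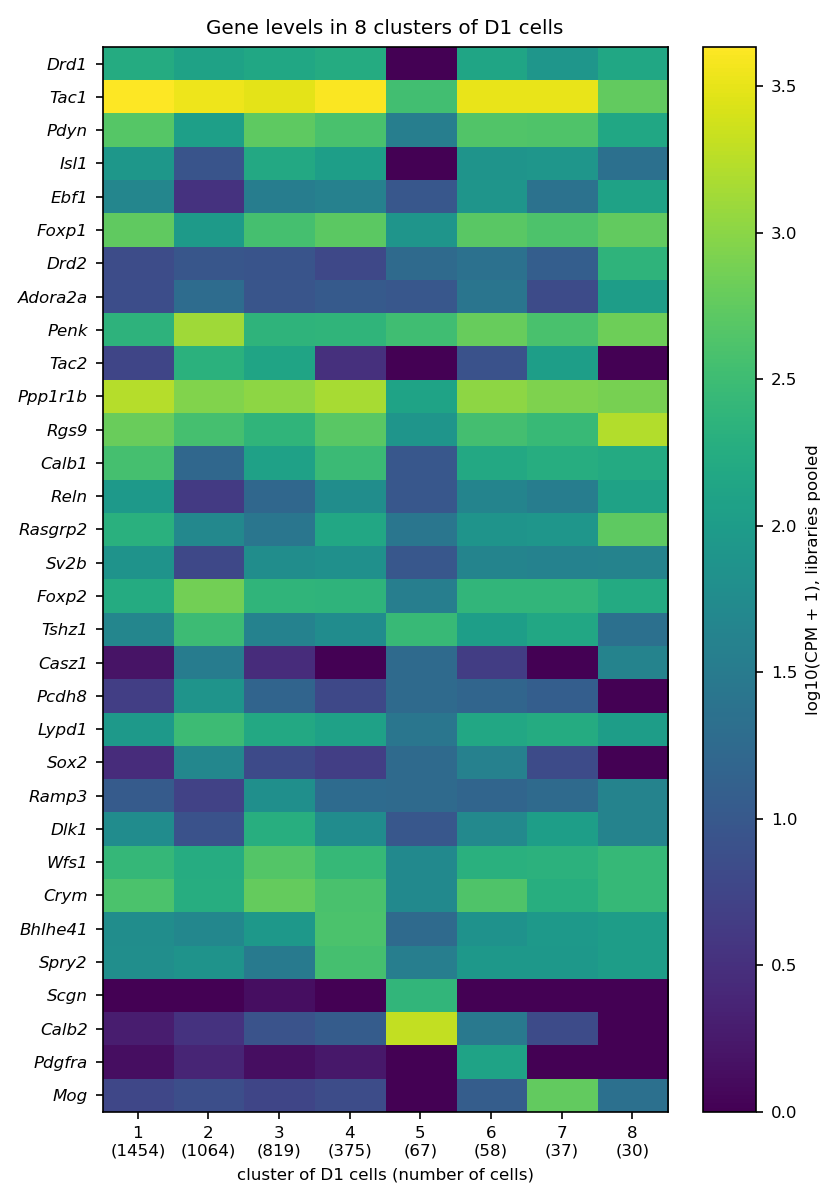
Level of selected genes in the 8 clusters of D1 cells, with the number of cells under each cluster and color giving log10(CPM + 1) of the summed libraries. Cluster 2 is low in Pdyn, Isl1, Ebf1, Foxp1 and Calb1 and high in Foxp2, Penk and Tshz1, cluster 5 has no Drd1, and cluster 7 holds Mog.

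The study asked how loss of 1 copy of Setd1a changes expression in each cell type. Setd1a itself was at 14.1 and 15.7 CPM in the WT libraries and 13.0 and 13.6 CPM in the Setd1a+/- libraries, from 48, 76, 26 and 37 UMIs. The 2 genotypes did not overlap, as was so for 18.7% of all genes tested in the lower direction. The log2 fold change (FC) of -0.13 ± 0.25 (SE, edgeR, FDR = 1.0) was within its error and was 0.069 after cells were thinned to 1000 UMIs. A deletion of 8 bases does not remove counts of the transcript by itself, so this value does not check the labels.

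Summed over D1 cells and compared between 2 and 2 libraries, 0 of 11015 genes (0.0%) were called between the genotypes at FDR under 0.05 and FC above 2 with edgeR. At an unadjusted p under 0.05 there were 228 genes (2.07%), 111 higher (1.01%) and 117 lower (1.06%) in Setd1a+/- mice. That count was 204 and 189 without WT replicates 1 and 2, 1007 without Setd1a+/- replicate 1 and 736 without Setd1a+/- replicate 2. Scaling by library size alone turned this split to 86 higher and 179 lower, with a median log2 FC over all genes of -0.03 in place of 0.01. DESeq2 also called 0 genes, with 50 at p under 0.05. On plain CPM, without TMM scaling, the 2 genotypes did not overlap in 3231 genes (29.3%), 1176 (10.7%) higher and 2055 (18.7%) lower. The genes that define the cells did not pass the test: Drd1 had a log2 FC of 0.21 ± 0.14, Tac1 of -0.08 ± 0.16 and Pdyn of -0.36 ± 0.16, each with FDR = 1.0 in edgeR. The libraries of the genotypes overlapped for Tac1 but not for Drd1 and Pdyn. The p-values measure the spread between these pools of mice.

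Per the methods, every biological replicate paired 1 WT with 1 mutant library. With the replicate as a block edgeR called 10 genes (0.0908%), 5 higher and 5 lower, and 31 genes (0.281%) had FDR under 0.05 at any FC. Without WT replicate 1, WT replicate 2, Setd1a+/- replicate 1 and Setd1a+/- replicate 2 in turn, the test without a block called 16, 13, 29 and 0 genes, and no gene was called in all 4. Setd1a+/- replicate 2, which stood apart, thus entered all fits of the genotype effect over all D1 cells that made calls. The 10 genes of smallest p in each direction without the block, none of which passed, include Nefm, the medium neurofilament gene (61.1 and 54.0 CPM in the WT libraries, 88.4 and 79.3 CPM in the Setd1a+/- libraries, log2 FC 0.58 ± 0.16), and Rgs10, a regulator of G protein signaling (145 and 159 CPM, then 105 and 104 CPM, -0.50 ± 0.15). The genes described next are those called with the block, chosen after their values were seen.

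Ankrd61, a gene of an ankyrin repeat protein on chromosome 5 (143890741 to 143897685, minus strand, GRCm38), had 23 and 35 UMIs in the D1 cells of the WT libraries, each in a different cell, and none in those of either Setd1a+/- library. Taking 3 counts as the limit for a sum of 0, it was at least 11.1-fold lower (blocked edgeR, FDR = 1.47e-06; FDR = 1.0 without the block). The other 9 types showed the same order, with 39 and 49 UMIs in the WT and 1 and 2 in the Setd1a+/- libraries. Ccl5, a chemokine gene of immune cells, had 34 and 29 UMIs in the WT libraries against 0 and 1 in the others, and was also called with the block. Of these, 33 and 28 UMIs lay in 1 cell of each WT library, so this call rests on 2 cells.

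Among the genes called higher with the block, Btg3, an antiproliferative gene of the BTG family, was at 4.41 and 9.31 CPM in the WT libraries and at 19.0 and 23.9 CPM in the Setd1a+/- libraries, with a blocked log2 FC of 1.66 ± 0.28. Ccnd1, which encodes cyclin D1, was at 5.29 and 3.93 CPM against 13.99 and 10.3 CPM in the same order (1.43 ± 0.36). Slitrk2, a synaptic adhesion gene, was at 6.76 and 8.90 CPM against 13.0 and 24.2 CPM (1.30 ± 0.28). The libraries of the 2 genotypes did not overlap for these 3 genes, as was so for 10.7% of all genes in the higher direction. D2 cells of the same libraries showed the same order. There Btg3 was at 5.84 and 9.68 against 12.5 and 19.2 CPM. Ccnd1 was at 2.92 and 3.55 against 8.59 and 11.4 CPM, and Slitrk2 at 13.8 and 14.8 against 17.2 and 27.6 CPM. Tpm3-rs7, a copy related to the tropomyosin gene Tpm3 whose reads may be shared with it, was at 63.1 CPM in Setd1a+/- replicate 2 and at 2.90 to 4.50 CPM in the other 3 libraries. It was high in 1 library only, also outside D1 cells, with 279 UMIs in the other types of that library and 12 to 37 in the others. Its log2 FC was 3.64 with all libraries and 0.63 without that library. Rpgrip1, a cilium gene, was at 18.5 and 38.3 CPM against 37.0 and 81.1 CPM, and the genotypes overlapped. Its log2 FC was 1.10 with all libraries and 0.35 without Setd1a+/- replicate 2.

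Rpgrip1, Spry2 and Rbm15 are among the 10 leading genes of cluster 4 and among the 31 genes with FDR under 0.05 in the blocked fit. Cluster 4 made up 7.80 and 10.5% of WT and 5.83 and 12.5% of Setd1a+/- D1 cells, and its part in these results was not tested. In D2 cells, which were not clustered here, these genes were also highest in Setd1a+/- replicate 2. Spry2 was at 184 CPM there and at 78.5 to 91.7 CPM in D2 cells of the other libraries. Rpgrip1 was at 82.7 against 20.04 to 40.7 CPM, and Rbm15 at 35.9 against 17.5 to 23.9 CPM, in the same order. In D1 cells without Setd1a+/- replicate 2 the log2 FC was -0.26 for Spry2 and -0.19 for Rbm15. It was 0.76 and 0.83 in the blocked fit of all libraries. Among the genes called lower, Slc16a11, a monocarboxylate transporter family gene, was at 28.5 and 46.8 CPM in the WT libraries against 12.0 and 23.9 CPM, and Mroh7 was at 14.4 and 4.35 against 1.499 and 2.20 CPM. Hba-a2, a hemoglobin alpha gene, had 53, 471, 10 and 121 UMIs with the genotypes overlapping. Of these, 298 in WT replicate 2 and 53 in Setd1a+/- replicate 2 lay in 1 cell each, and its log2 FC was 0.79 without WT replicate 2 and -3.53 without Setd1a+/- replicate 2. Ifi27, an interferon-induced gene, passed FDR but not the FC limit with the block. It was at 46.7 and 49.7 CPM against 24.0 and 26.4 CPM (log2 FC -0.89 ± 0.18). In D2 cells Ifi27 showed the same order, at 51.8 and 42.9 against 18.0 and 21.8 CPM. So did Mroh7, at 11.3 and 5.49 against 3.91 and 1.04 CPM, and Slc16a11, at 18.8 and 29.1 against 17.2 and 17.2 CPM.

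**Figure D4:**
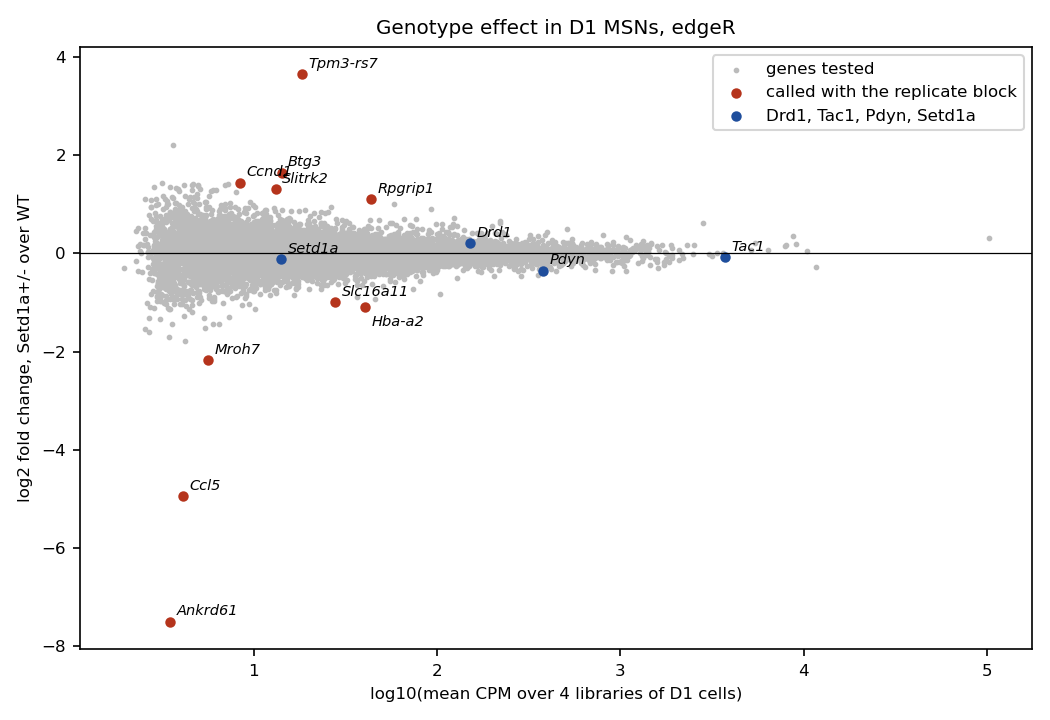
Log2 FC of Setd1a+/- over WT in D1 cells (edgeR without the block, y axis) against log10 of the mean CPM over 4 libraries (x axis) for 11015 genes (gray). Red, the 10 genes called with the replicate block; blue, Drd1, Tac1, Pdyn and Setd1a. Ankrd61 and Ccl5 lie lowest and Tpm3-rs7 highest, and most red genes are at low levels.

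Gene lists held no calls in D1 cells, and none could, since the test called 0 of 11015 genes. Of 26 synaptic vesicle release genes, 10 were higher and 16 lower in Setd1a+/- mice, beside 5711 higher and 5304 lower of all genes. Their median log2 FC was -0.08 and 0 were at p under 0.05, beside 2.07% of all genes. For 19 H3K4 methylation genes the median was -0.01 (9 higher, 10 lower), for 24 genes of the D1 receptor and cAMP pathway 0.02, for 31 excitability channels 0.11 and for 85 oxidative phosphorylation genes 0.04, beside 0.01 for all genes. Without Setd1a+/- replicate 2 the last 4 list medians were -0.08, -0.04, 0.03 and -0.09, and without Setd1a+/- replicate 1 they were 0.03, 0.06, 0.04 and 0.14, so the signs of the H3K4, cAMP and oxidative phosphorylation medians rest on single libraries. The vesicle release median was -0.05 and -0.10 in the same order. A pair of genes that the study names for the striatum are given as values, chosen after these were seen. Rab26, a vesicle G protein, was at 51.2 and 57.9 CPM in the WT libraries and 28.0 and 39.6 CPM in the Setd1a+/- libraries (log2 FC -0.63 ± 0.21), and Borcs5, a lysosome positioning gene, at 47.6 and 48.4 against 39.5 and 24.2 CPM (-0.58 ± 0.22). The 2 genotypes did not overlap in either gene, as was so for 18.7% of all genes in the lower direction, and neither passed the FDR. The study chose them on these same samples, so they are not independent evidence of a direction.

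All 8 oligodendrocyte markers were higher in Setd1a+/- D1 cells, with a median log2 FC of 0.54 and none at p under 0.05. Their summed level was 198 to 715 CPM in WT and 134 to 1095 CPM in Setd1a+/- D1 cells, against 58944 to 74774 CPM in mature oligodendrocytes, and none of the 8 was at 0 in all libraries. The median was 1.51 without Setd1a+/- replicate 2 and -1.87 without Setd1a+/- replicate 1, so its sign rests on which library is kept. The 37 cells of cluster 7 held 19205.8 CPM of these markers and all other D1 cells 200.8 CPM, and 19 and 16 of the 37 came from WT and Setd1a+/- replicate 1, whose summed levels were the high ones, against 0 and 2 from the replicates numbered 2. The sum was higher in Setd1a+/- within the first pair and lower within the second. Summed astrocyte markers were at 187 to 216 CPM in WT and 167 to 258 CPM in Setd1a+/- D1 cells.

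The genotype effect in D1 cells was then compared with that in D2 cells of the same libraries, by a test of the difference itself. The difference was called for 4 of 10989 genes (0.0364%), and 9 (0.0819%) had FDR under 0.05 at any size. The 4 were the hemoglobin genes Hbb-bs, Hba-a1, Hba-a2 and Hbb-bt, with a D1 effect higher by 3.55 to 4.71 on the log2 scale. In D2 cells, where 4 genes (0.0397%) were called between genotypes, 1270 of the 1362 Hbb-bs UMIs of WT replicate 1 lay in 1 cell, as did 1911 of 2113 in WT replicate 2. Without the 8 D1 and 2 D2 cells that held 50 or more hemoglobin UMIs, the difference was called for 0 genes, with 4 at FDR under 0.05 and 489 at p under 0.05, and the 4 hemoglobin values lay between -0.71 and 0.09. Without Setd1a+/- replicate 2, Hbb-bs alone of the 4 kept FDR under 0.05, and there were 17 genes at FDR under 0.05 and 740 at p under 0.05.

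Those 4 genes were Gadd45g, Junb, Btg2 and Scg2, all with a lower genotype effect in D1 than in D2 cells. Gadd45g, a stress and activity response gene, was at 154.6 and 159 CPM in the D1 cells of the WT libraries, at 158 and 164 CPM in those of the Setd1a+/- libraries, and at 162 and 120.1 against 229.7 and 229.9 CPM in D2 cells. The D1 values lay close together while the D2 genotypes were apart, and the difference was -0.69 ± 0.12 on the log2 scale. For Junb, an AP-1 subunit, the difference was -0.53 ± 0.09, with the WT and Setd1a+/- D1 values overlapping. Btg2, an antiproliferative early gene, was at 35.9 and 31.0 and then 28.0 and 40.4 CPM in D1 cells, against 55.1 and 42.3 and then 109.4 and 85.8 CPM in D2 cells in the same order, a difference of -0.92 ± 0.20. Scg2, the secretogranin II precursor, differed by -0.29 ± 0.06. None of the 4 was called between genotypes in D1 or in D2 cells alone. Without WT replicate 2 the FDR of the 4 was between 0.982 and 0.999 in edgeR, while the differences kept their sign, at -0.43 for Gadd45g and for Junb, -0.83 for Btg2 and -0.27 for Scg2. Gadd45g alone kept FDR under 0.05 without each of the other 3 libraries, while Junb lost it without Setd1a+/- replicate 1 (0.174) and Btg2 and Scg2 lost it without WT replicate 1 (0.085 and 0.96) and Setd1a+/- replicate 1 (0.855 and 0.262).

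Of 19 immediate early genes tested for this difference, 8 were lower in D1 at p under 0.05 and 0 higher, beside 246 lower (2.24%) and 245 higher (2.23%) of all 10989 genes, 491 in all (4.47%). Their median log2 FC was 0.34 in D1 and 0.78 in D2 cells, and the median difference was -0.50. In D1 cells 15 of the 19 were higher in Setd1a+/- mice, beside 5711 of all 11015 genes, and 2, Homer1 and Egr4, were so at p under 0.05, beside 1.01% of all genes. The median in D1 was 0.13 without Setd1a+/- replicate 1 and 0.50 without Setd1a+/- replicate 2. The genes of the list answer the same stimuli and are not independent of each other.

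**Figure D5:**
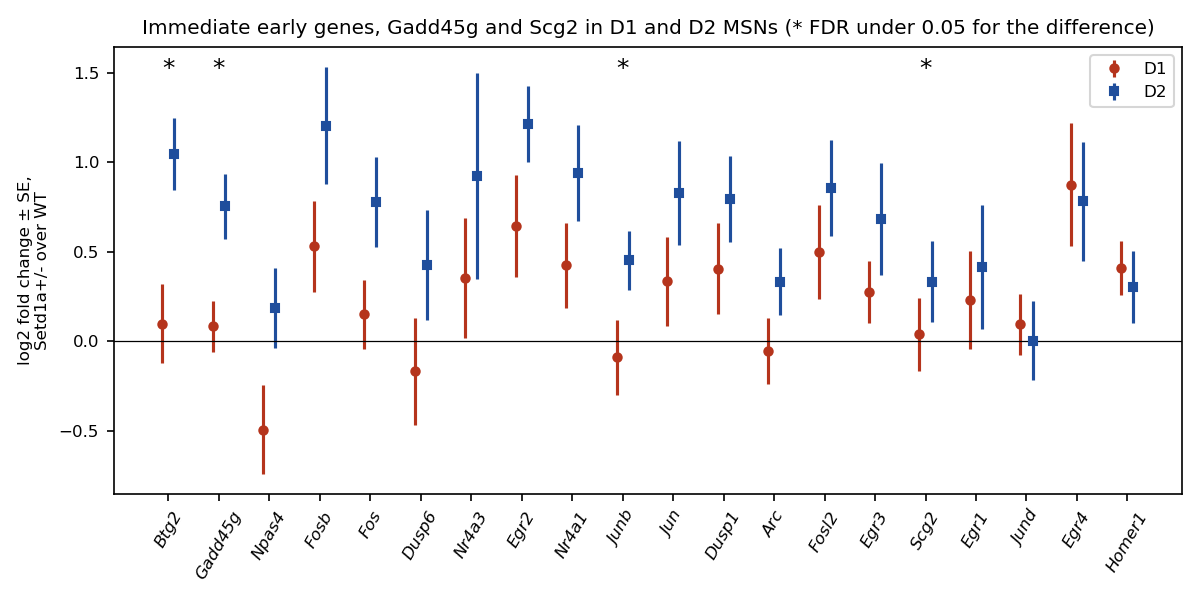
Log2 FC of Setd1a+/- over WT with its SE (edgeR) in D1 cells (red circles) and D2 cells (blue squares) for 18 immediate early genes tested in both types and for Gadd45g and Scg2. Asterisks mark FDR under 0.05 for the difference, which Btg2, Gadd45g, Junb and Scg2 passed, and in 15 of the 18 early genes the D1 value lies below the D2 value.

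Within the large D1 clusters no gene was called without the block: 0 of 9127, 7166, 7283 and 5045 genes (0.0% each) in clusters 1 to 4, with 277 (3.03%), 185 (2.58%), 268 (3.68%) and 170 (3.37%) at p under 0.05. With the replicate block edgeR called 2 genes in cluster 1 (0.0219%), 1 in cluster 2 (0.014%), 4 in cluster 3 (0.0549%) and 1 in cluster 4 (0.0198%). Leaving out single libraries moved these counts widely, as given with the limits. Those of cluster 1 were Btg3 and Ppfia3, a gene of the presynaptic liprin-alpha scaffold. Ppfia3 was at 21.0 and 13.8 CPM in the WT libraries and 36.6 and 43.4 CPM in the Setd1a+/- libraries (blocked log2 FC 1.30 ± 0.27). Ifi27 in cluster 3 was at 87.9 and 87.3 CPM against 25.1 and 40.7 CPM (-1.32 ± 0.30). The other 5 calls were hemoglobin genes.

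D1 cells made up 23.5 and 31.9% of annotated cells in WT and 15.4 and 40.4% in Setd1a+/- libraries. The means were 27.7 ± 5.90% and 27.9 ± 17.7% (SD, n = 2), and their difference of 0.186 percentage points gave p = 1.0 by exact permutation (two-sided), which cannot go below 0.333 with 2 against 2 libraries. The pairs went opposite ways, by -8.16 points within replicate 1 and 8.54 within replicate 2, and the difference was -12.3 points without Setd1a+/- replicate 2 and 12.7 without Setd1a+/- replicate 1. The high D1 share in Setd1a+/- replicate 2 went with the low glial counts of that library. As a share of D1 and D2 MSNs together, D1 cells were 60.3 and 63.1% in WT and 63.5 and 59.4% in Setd1a+/- libraries. Their Wilson intervals were 57.9 to 62.6, 61.0 to 65.2, 60.3 to 66.6 and 57.1 to 61.7% in that order. The 4 values were close and the genotypes overlapped (difference -0.230 percentage points, exact permutation p = 1.0). Cluster 3 made up 22.4 and 21.4% of WT and 20.2 and 19.3% of Setd1a+/- D1 cells, without overlap, at the smallest p the design allows (0.333, exact permutation test). The same was the case for the small cluster 8, which had 11 and 18 cells in the WT and 0 and 1 in the Setd1a+/- libraries. This test did not use the pairs, within which cluster 3 differed by -2.18 and -2.10 points and cluster 8 by -1.07 and -1.30. The shares of clusters 1, 2 and 4 overlapped between genotypes, and their pairs went opposite ways.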

How the data were processed

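Single-cell RNA sequencing libraries of mouse striatum were analysed, 2 per genotype, each of pooled tissue of 2 mice. The authors made the deposited UMI counts with Cell Ranger 3.0.2 on mm10 and annotated cells with Seurat 3.2.0, with cells under 800 genes or over 10% mitochondrial UMIs removed. Cell types, libraries and barcodes were taken from the annotation table as deposited, and the counts were not normalized. No doublet caller was run, and doublet removal by the authors is not given in the sources used here.

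Counts of D1 cells were summed per library (2001678 to 4832411 UMIs). Genes passing filterByExpr (minimum count 10) were compared between WT and Setd1a+/- by the quasi-likelihood test of edgeR 4.0.16 (TMM) in R 4.3.3 with Benjamini-Hochberg adjustment, and called at FDR under 0.05 and FC above 2. The difference between D1 and D2 was tested as an interaction with library as a block, so that each gene's D1 and D2 values of 1 library were compared. The reported D1 test had no replicate block, and one with it was run as an alternative. Per the methods, libraries were made as WT and mutant pairs, and deviations of same-numbered libraries correlated at 0.395 over 11015 genes. Other alternatives were DESeq2 1.42.0, a fold of 1.5, library size scaling, no filter, thinned cells, and leaving out libraries, cells or genes. Code was tested on simulated counts.

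D1 cells were clustered with scanpy 1.11.5 (1500 variable genes, 15 components, resolution 0.3). Shares were compared by exact permutation. Levels against other types carry no test, with log2 ratios taken after adding 1 CPM. Of 31053 features, 30934 matched the GRCm38 annotation. Named genes were list members, the 10 of smallest p in each direction, the 15 of highest ratio to the next type, 10 in each direction against D2, and 5 per cluster, plus genes said to be chosen after their values were seen. Some genes that these rules name are not reported here. The members and lists were chosen with earlier results of these data known.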

Additional observations from a re-analysis of the deposited data

Results flagged for a closer look

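The genotype effect differed between D1 and D2 MSNs by a test of the difference itself (edgeR, FDR under 0.05) for 9 genes. The difference, D1 minus D2 on the log2 scale, was 3.55 for Hbb-bs, 4.71 for Hba-a1, 3.93 for Hba-a2 and 4.21 for Hbb-bt, all of which lost FDR under 0.05 once 8 D1 and 2 D2 cells of 50 or more hemoglobin UMIs were left out. It was -0.69 for Gadd45g, -0.53 for Junb, -0.29 for Scg2 and -0.92 for Btg2, which kept FDR under 0.05 without those cells. It was 0.83 for Ptgds, the prostaglandin D synthase gene of glia and meninges, with an FDR of 0.047 that became 0.088 without them. None of the 9 was called between genotypes in D1 cells alone without the replicate block, while Hba-a2 was called with it. The 4 hemoglobin genes were called in D2 cells alone. None of the 5 genes other than hemoglobins kept FDR under 0.05 without WT replicate 2. Causes were not tested.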

How the results depend on the processing

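The count of genes called between genotypes in D1 cells was 0 and stayed 0 with DESeq2, a fold of 1.5, library size scaling, thinned cells, and without the cells of most UMIs, the small clusters, hemoglobin-rich cells, or mitochondrial and ribosomal protein genes. It was 10 with no filter on low counts and 10 with the replicate block, and 0 to 29 with single libraries left out. In clusters 1 to 4 the replicate block gave 2, 1, 4 and 1 calls, and single libraries left out gave 2 to 24, 1 to 18, 6 to 30 and 4 to 23. Calls of the D1 and D2 difference numbered 3 to 6 with a library left out and 0 without hemoglobin-rich cells (an alternative chosen after seeing the data), where Hbb-bs was -0.29, Hba-a2 -0.24 and Hbb-bt -0.71. A margin of 1.5-fold over the next type was kept by 6 genes after thinning. Within pair 1 the D1 share differed by -8.16 percentage points of annotated cells and 3.23 of MSNs, within pair 2 by 8.54 and -3.69, and with a library left out by -12.3 to 12.7 and -2.27 to 1.81. The log2 FC of Setd1a was 0.069 after thinning. With a library left out, log2 FC ranged from -0.16 to 0.00081 for Tac1, -3.53 to 0.79 for Hba-a2, -0.011 to 1.56 for Paip1, -0.26 to 1.50171 for Spry2, -1.55 to 0.016 for Cap1, -0.28 to 1.27 for Pam, -1.23 to 0.0041 for Mhrt, -0.19 to 1.39 for Rbm15 and -0.23 to 1.14 for Cbx3. The causes were not tested. With 2 libraries per genotype, a fit without one assumes that the lone library varies like the others. Setd1a+/- replicate 2 had few glia and shallower D1 cells, whose part in these results was not tested. Genes at a few CPM rest on few UMIs per library.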
